A study of Mus musculus with 15 samples.

Results

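Neural progenitors that made Nkx6.1 together with Olig2 were compared with progenitors that made Nkx6.1 alone, to ask which transcripts differ once Olig2 is added. The comparison rests on 4 of the 15 libraries of the study, chosen by their labels: 2 of the Nkx6.1-P2A-Olig2 line and 2 of the Nkx6.1 line. All lines were mouse embryonic stem cells of 129/Ola origin, turned into neural progenitors by 2 days in suspension culture and then 500 nM all-trans retinoic acid. A doxycycline pulse of 12 hours at 1 ug/ml induced the transgene, which sits behind a doxycycline-responsive promoter (TRE).

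The Nkx6.1 line carries TRE_Nkx6.1, and the other line carries Nkx6.1 and Olig2 in 1 transcript, joined by P2A, a short viral peptide at which translation yields separate proteins. The parental mA2.lox.Cre line, with TRE_Cre in place of a factor, gave 5 control libraries, and a line with TRE_Olig2 gave 2 libraries that are used here for the effect of Olig2 without Nkx6.1. The Nkx6.1-P2A-Nkx2.2 line, which has 2 libraries and no Olig2 transgene, is given beside the genes that fell and beside some lists and other genes. The Nkx2.2 line, also of 2 libraries, entered the fit and thus the spread shared by all groups. All of these received retinoic acid and doxycycline, the controls included. Each line is a single line of a given transgene, so a property of a line and the effect of its transgene cannot be told apart. Whether the replicates came from separate cultures is not stated in the labels, and the p-values measure the spread between these libraries, part or all of which may be technical.

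Nkx6.1 is a homeodomain repressor and Olig2 a basic helix-loop-helix repressor, and both mark the progenitors of spinal motor neurons. In the ventral neural tube, Nkx6.1 allows Olig2 to be made, and Olig2 restrains Irx3 and promotes Neurog2, which drives neuronal differentiation. Olig2 binds E-boxes, short DNA words of the form CANNTG.

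The lines were labelled in different series: the Nkx6.1, Olig2 and Nkx2.2 libraries carry label numbers of series 21, and those of both P2A lines of series 23. Only the controls have libraries in both, 3 in series 21 and 2 in series 23. The model therefore had 6 groups and a term for the label series, so that a log2 fold change is the distance of the Nkx6.1-P2A-Olig2 line from the series 23 controls minus the distance of the Nkx6.1 line from the series 21 controls. Values per library are CPM, the share of the counts of the library on the usual fixed scale, scaled by the trimmed mean of M-values (TMM), and fold changes carry the standard error (SE) of the model. Library totals were 15078858 and 16245871 counts in the Nkx6.1-P2A-Olig2 line and 14566291 and 17469106 in the Nkx6.1 line, against 18015449 to 19426544 in the controls. The replicates of the Nkx6.1-P2A-Olig2 line differed by more than 2-fold at 257 of 13982 tested genes and those of the Nkx6.1 line at 29. Control pairs ranged from 3 genes, for replicates 2 and 4, to 548 genes, for replicates 3 and 5, and both of these pairs cross the label series. Control replicates 4 and 5, which set the series 23 level, differed at 257.

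With the label series term, 11 genes fell and 0 rose (edgeR quasi-likelihood test, Benjamini-Hochberg adjusted p under 0.05). These were 0.0787% of the 13982 genes tested, and 9 of them fell by 2-fold or more, which is 0.0644%. At an unadjusted p under 0.05, 736 genes were lower and 712 higher, or 5.26% and 5.09%. DESeq2 called 47 lower and 16 higher (0.336% and 0.114%), and limma 11 lower and 1 higher (0.0787% and 0.00715%). The genes that fell were the imprinted genes Plagl1 and Nnat, the X-linked Xlr3a, Xlr3c, Xlr5a and Nxf3, the Y-linked Ddx3y, Eif2s3y and Uty, and the autosomal Cdh1 and Eif5b. Of these 11 genes, 7 lay on X or Y, which hold 515 of the genes tested or 3.68%, and the other 4 on chromosomes 1, 2, 8 and 10.

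Promoter sequences are shown for the imprinted genes and for a pair of Xlr3 copies, which fell together. Each run is the 250 bases before the start that RefSeq gives on GRCm38.p6, read 5′ to 3′ on the strand of the gene, and capitals mark every CANNTG match. The Plagl1 window is chr10:13090582-13090831 on the plus strand and the Nnat window chr2:157559828-157560077 on the plus strand. The Xlr3a window is chrX:73097096-73097345 and the Xlr3c window chrX:73265391-73265640, both on the minus strand.
Plagl1: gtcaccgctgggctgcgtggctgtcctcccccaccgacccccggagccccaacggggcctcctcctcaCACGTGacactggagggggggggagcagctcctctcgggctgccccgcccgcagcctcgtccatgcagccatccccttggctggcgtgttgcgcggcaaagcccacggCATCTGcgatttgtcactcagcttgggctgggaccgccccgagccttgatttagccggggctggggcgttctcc
Nnat: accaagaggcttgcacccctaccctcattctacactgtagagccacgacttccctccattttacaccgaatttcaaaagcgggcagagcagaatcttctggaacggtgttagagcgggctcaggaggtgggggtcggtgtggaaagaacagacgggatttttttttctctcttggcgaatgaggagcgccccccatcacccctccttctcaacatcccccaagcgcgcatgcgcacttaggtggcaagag
Xlr3a: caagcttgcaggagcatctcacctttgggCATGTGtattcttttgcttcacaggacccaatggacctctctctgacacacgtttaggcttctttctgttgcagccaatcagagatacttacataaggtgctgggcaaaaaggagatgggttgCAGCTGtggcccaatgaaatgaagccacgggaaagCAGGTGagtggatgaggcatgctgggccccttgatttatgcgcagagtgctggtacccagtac
Xlr3c: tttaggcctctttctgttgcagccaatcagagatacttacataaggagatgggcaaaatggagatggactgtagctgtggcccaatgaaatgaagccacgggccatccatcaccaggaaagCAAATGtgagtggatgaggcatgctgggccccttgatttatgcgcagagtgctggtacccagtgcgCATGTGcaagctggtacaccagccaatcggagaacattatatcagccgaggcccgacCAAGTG
The Plagl1 window holds 2 matches to CANNTG, and 1 of them reads CAGATG on the other strand. The Nnat window holds 0, and the Xlr3a and Xlr3c windows hold 3 each. The Xlr3a and Xlr3c promoters share a stretch of 58 identical bases. Of the 9 genes that fell and have an entry in the table, 6 hold a CANNTG in this window, and 66.2% of all 32851 promoters of the table do. CAGATG, counted on both strands, was in 1 of the 9 and in 14.4% of all promoters. CAGCTG was in 2 of the 9 and in 4271 of all, and CATATG in 0 of the 9 and in 3.46% of all. All 3 of these words are cases of CANNTG and were counted within it too. A match is a string of letters and not a binding site.

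Olig2, the added factor, was at 586 and 637 CPM in the Nkx6.1-P2A-Olig2 libraries and at 22.8 and 24.1 CPM in the Nkx6.1 libraries. The controls lay between 5.58 and 45.1 CPM, and the Olig2 line at 422 and 522 CPM. The Nkx6.1-P2A-Olig2 libraries stood above every control and every Nkx6.1 library, as their label says. On the log2 scale, Olig2 differed by 3.31 ± 0.63 (SE) with the series term, at an edgeR quasi-likelihood adjusted p of 0.113, and 4.71 ± 0.66 without the term, at an adjusted p of 0.0145. The control libraries differed by a log2 of 1.40 between the series, and that difference is subtracted in the first value. Counts from the transgene and from the endogenous Olig2 gene (chr16:91225457-91228677, plus strand, from GENCODE M21) cannot be separated in the table.

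Nkx6-1, which both lines carry as a transgene, was at 657 and 681 CPM with Olig2 and at 674 and 616 CPM without it. The libraries of the lines overlapped. Its log2 fold change was -0.92 ± 0.56 (SE) with the series term (edgeR quasi-likelihood adjusted p = 0.566) and 0.053 without it, since the controls of series 23 stood at a log2 of 0.97 above those of series 21. These controls were at 10.85, 25.9 and 20.1 CPM in series 21 and at 26.9 and 47.3 CPM in series 23, so the higher level rests largely on replicate 5. Nkx2-2, the factor of the most ventral progenitors, had 8 counts over both Nkx6.1-P2A-Olig2 libraries and 2 counts over both Nkx6.1 libraries. The ratio was 4.13, with an exact 95% interval of 0.825 to 40.0 that covers counting error only, and the edgeR quasi-likelihood adjusted p was 0.827.

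Plagl1, an imprinted zinc-finger transcription factor of growth control, was at 1.21 and 1.74 CPM in the Nkx6.1-P2A-Olig2 libraries and at 23.85 and 22.98 CPM in the Nkx6.1 libraries. The controls were at 22.2, 29.7 and 35.02 CPM in series 21 and at 83.8 and 60.4 CPM in series 23, and the Olig2 line at 2.72 and 4.33 CPM. The Nkx6.1-P2A-Nkx2.2 line, which has no Olig2 transgene, was at 8.66 and 12.7 CPM. All 3 of these lines thus lay below every control and both Nkx6.1 libraries, the Nkx6.1-P2A-Olig2 line lowest. The log2 fold change was -5.31 ± 0.41 (SE) at an edgeR quasi-likelihood adjusted p of 0.000208, and -3.99 ± 0.64 without the series term (adjusted p = 0.0301). In 23 of 23 alternative fits Plagl1 was past the threshold, with log2 fold changes from -5.71 to -3.98. Plagl1 spans chr10:13060504-13131694 on the plus strand, so that the RefSeq promoter shown above lies inside the GENCODE M21 gene span.

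In the authors' deposited table of ratios to the control mean, Plagl1 had 0.499 and 0.401 in the Nkx6.1 libraries and 0.0236 and 0.0306 in the Nkx6.1-P2A-Olig2 libraries. That table lists 7 of the 11 genes that fell. In bulk RNA such as this, a smaller share of cells with a transcript and less of it per cell cannot be told apart.

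Nnat, which encodes the membrane protein neuronatin and is expressed from the paternal copy, was at 6.59 and 14.9 CPM with Olig2 and at 44.8 and 44.3 CPM without it. Controls were at 23.4, 27.5 and 23.5 CPM in series 21 and at 68.0 and 76.3 CPM in series 23, and the Olig2 line at 16.7 and 23.5 CPM. Nnat was at 39.6 and 73.3 CPM in the libraries of Nkx6.1-P2A-Nkx2.2. Both Nkx6.1-P2A-Olig2 libraries were below all others named here, and the controls differed more between the series than within either. Nnat had a log2 fold change of -3.60 ± 0.46 (SE, adjusted p = 0.00845 in the edgeR quasi-likelihood test), and -2.06 ± 0.62 without the series term, at an adjusted p of 0.114. Nnat (chr2:157560078-157562522, plus strand) lies inside Blcap, which is read from the minus strand. Blcap was at 59.3 and 61.6 CPM with Olig2 and at 43.4 and 44.3 CPM without, with a log2 fold change of 0.59 ± 0.13 that did not pass (adjusted p = 0.215). The strand setting of the counting was not given in the sources used here. Reads of the pair may be shared.

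Of the 19 imprinted genes tested, of 20 listed, 2 fell and 0 rose, against 0.0787% of all genes. The list had 14 negative and 5 positive log2 fold changes and a median of -0.44, beside 50.2% negative and a median of -0.0017 over all genes tested. H19, a non-coding RNA of the Igf2 locus, was at 9.85 and 11.2 CPM with Olig2 and at 24.8 and 39.3 CPM without it. The libraries did not overlap, but 26.6% of all genes had both Nkx6.1-P2A-Olig2 libraries below both Nkx6.1 libraries. Its log2 fold change of -3.04 ± 0.53 did not pass (adjusted p = 0.0743). Peg3, a paternally expressed zinc-finger gene, was at 554 and 388 CPM with Olig2 and at 935 and 709 CPM without (-1.06 ± 0.27, adjusted p = 0.346). On the other side lay Cdkn1c, an inhibitor of the cell cycle, at 147 and 182 CPM against 103 and 87.4 CPM (0.76 ± 0.26, adjusted p = 0.409). Grb10, an adaptor that restrains growth factor signalling, was at 626 and 684 CPM against 407 and 397 CPM (0.87 ± 0.22, adjusted p = 0.346). The Nkx6.1-P2A-Nkx2.2 line, without an Olig2 transgene, was also above both Nkx6.1 libraries, at 184 and 216 CPM for Cdkn1c and at 640 and 769 CPM for Grb10. For H19 that line was at 24.2 and 30.7 CPM and for Peg3 at 630 and 658 CPM, above both Nkx6.1-P2A-Olig2 libraries. Igf2 libraries overlapped between the lines.

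**Figure D1:**
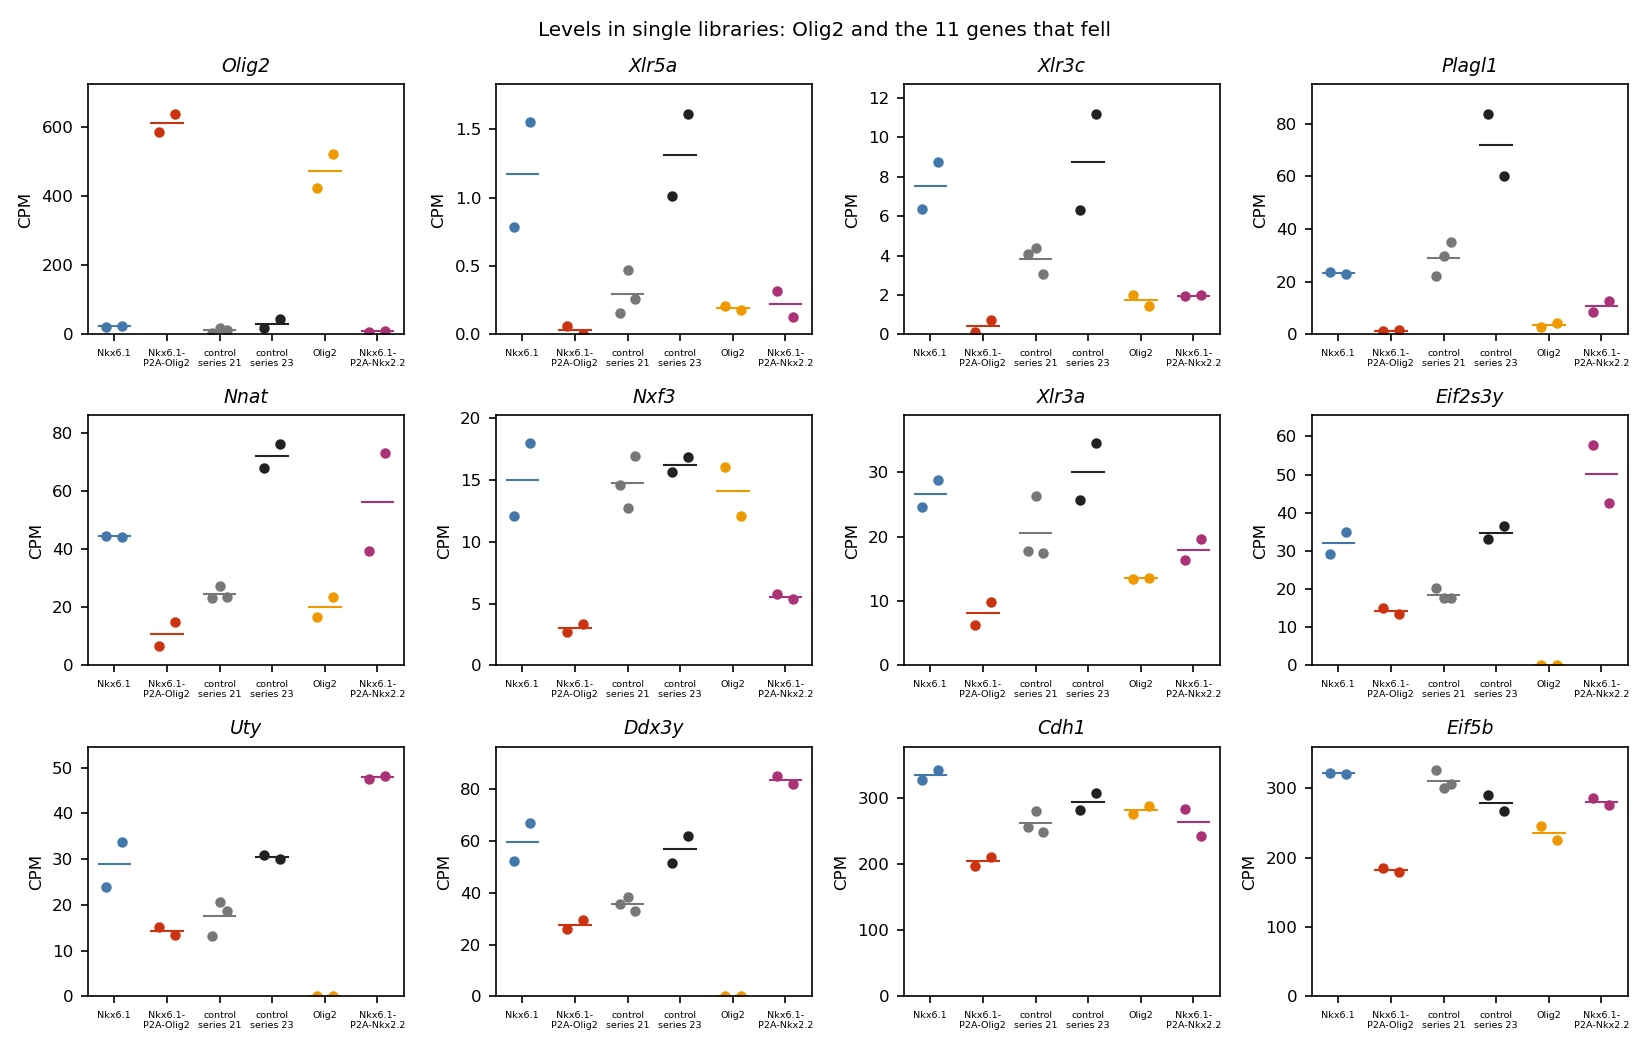
Level of Olig2 and of each of the 11 genes that fell, in CPM on a linear axis that starts at 0, with 1 point per library and a line at the group mean; the controls are split by label series. In each of the 11 lower genes, chosen by a test on these libraries, both Nkx6.1-P2A-Olig2 points lie below both Nkx6.1 points. Of all genes tested, 26.6% do so too. For Plagl1 the Olig2 line, at 2.72 and 4.33 CPM, and the Nkx6.1-P2A-Nkx2.2 line, at 8.66 and 12.7 CPM, lie below the controls as well.

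The Xlr genes are a cluster of near-identical X-linked copies first described in lymphocytes. Xlr3c was at 0.121 and 0.737 CPM with Olig2 and at 6.37 and 8.72 CPM without it, while the controls were between 3.07 and 11.2 CPM and the Olig2 line at 2.02 and 1.44 CPM. Its log2 fold change was -5.34 ± 0.61 (SE, adjusted p = 0.0048 in the edgeR quasi-likelihood test). Xlr3a was at 6.29 and 9.91 CPM with Olig2 and at 24.5 and 28.9 CPM without it. The controls were between 17.5 and 34.5 CPM and the Olig2 line was at 13.5 and 13.6 CPM. The Nkx6.1-P2A-Nkx2.2 line, without an Olig2 transgene, was at 1.92 and 2.02 CPM for Xlr3c, beside the Olig2 line and below every control, and at 16.4 and 19.6 CPM for Xlr3a, within or just below the control range. For both genes the Nkx6.1-P2A-Olig2 libraries were the lowest of these lines. The log2 fold change of Xlr3a was -2.28 ± 0.32 (adjusted p = 0.0192).

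Xlr5a had 1 count over both Nkx6.1-P2A-Olig2 libraries and 37 counts over both Nkx6.1 libraries, and the ratio of the lines was 35.8 with an exact 95% interval of 6.04 to 1452 (counting error only). The edgeR quasi-likelihood adjusted p was 0.0192, and its fitted log2 fold change of -7.02 depends on the prior count, so it is no bound. Xlr3b (-2.12 ± 0.44, adjusted p = 0.196), Xlr4a (-3.19 ± 0.54, adjusted p = 0.0622) and Xlr4b (-5.76 ± 1.07, adjusted p = 0.095), which were named after their values were seen, did not pass. Xlr4b had only 2 counts with Olig2 against 42 without. The annotated span of Xlr5a contains Xlr3c and overlaps other copies, so reads may be split among these genes and each single value is uncertain.

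Nxf3, an X-linked member of the nuclear RNA export factor family, was at 2.72 and 3.35 CPM with Olig2 and at 12.1 and 18.0 CPM without it. The controls lay between 12.8 and 16.9 CPM in both series and the Olig2 line at 16.1 and 12.1 CPM. The other P2A line of series 23, Nkx6.1-P2A-Nkx2.2, was at 5.77 and 5.36 CPM, so both P2A lines lay below every control and both Nkx6.1 libraries. Nxf3 had a log2 fold change of -2.44 ± 0.30 (SE; adjusted p = 0.00672) with the series term and -2.31 ± 0.23 (adjusted p = 0.00222) without it. Its departure from the change that Olig2 made without Nkx6.1 was -2.37 ± 0.39, which did not pass (edgeR quasi-likelihood adjusted p = 0.127).

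The 3 Y-linked genes that fell had log2 fold changes from -2.07 to -1.78, smaller in size than those of Plagl1 and Nnat, a difference that was not tested. Ddx3y, an RNA helicase, was at 26.0 and 29.6 CPM with Olig2 and at 52.3 and 67.1 CPM without it. The controls were at 35.7, 38.3 and 33.2 CPM in series 21 and at 51.7 and 62.1 CPM in series 23, and the Olig2 line at 0 in both libraries. The Nkx6.1-P2A-Nkx2.2 line was at 85.1 and 82.2 CPM, above every control. The 3 series 21 controls lay nearer to the Nkx6.1-P2A-Olig2 libraries than to the Nkx6.1 libraries. Ddx3y had a log2 fold change of -1.78 ± 0.18 (SE; adjusted p = 0.0048) with the series term and -1.10 ± 0.26 (adjusted p = 0.0664) without.

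Eif2s3y, a subunit of a translation initiation factor, was at 15.2 and 13.5 CPM with Olig2, at 29.1 and 34.9 CPM without it, and at 17.7 to 36.4 CPM in the controls. Uty, a relative of histone demethylases, was at 15.1 and 13.5 CPM with Olig2, at 24.0 and 33.8 CPM without it, and at 13.3 to 30.9 CPM in the controls. Neither line pair overlapped, but for Uty the control range reached down to the Nkx6.1-P2A-Olig2 values. The log2 fold changes were -2.07 ± 0.24 (SE; adjusted p = 0.0048) and -1.81 ± 0.26 (adjusted p = 0.0192), and without the series term neither passed (adjusted p = 0.108 and 0.122). The Nkx6.1-P2A-Nkx2.2 line was at 57.7 and 42.7 CPM for Eif2s3y and at 47.5 and 48.2 CPM for Uty, above every control. The other tested Y genes, Uba1y (-2.24, adjusted p = 0.346) and Usp9y (-0.68, adjusted p = 0.776), did not pass. The median over the 5 tested genes of the Y chromosome was -1.81, and over the 510 of the X chromosome 0.055.

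The Olig2 line had 0 counts of Ddx3y, 1 count of Eif2s3y and 3 counts of Uty over its 2 libraries. Uba1y and Usp9y, the other tested Y genes, were at 0 in both of its libraries, so all 5 tested Y genes were at or near 0 there. Adding Olig2 to Nkx6.1 was therefore tested against adding Olig2 to no factor, as the difference of the changes. In that test 3 genes were higher and 0 lower, or 0.0215% of those tested, and they were Ddx3y (10.4 ± 0.64, SE), Eif2s3y (6.80 ± 0.64) and Uty (5.57 ± 0.58). Their edgeR quasi-likelihood adjusted p-values were 4.22e-05, 0.0010 and 0.0020. Because the Olig2 line had almost no Y counts, these fitted sizes depend on the prior count and are no bounds. At an unadjusted p under 0.05 the test had 1751 genes, 12.5% of those tested, and DESeq2 called 68 (0.65% of the genes it gave an adjusted p) and limma 2 (0.0143%). For Plagl1 the difference was -2.28 ± 0.55 and did not pass (adjusted p = 0.313), and for Nnat it was -3.30 ± 0.62 (adjusted p = 0.178). The changes in the lines share the control libraries.

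Cdh1, which encodes E-cadherin, the adhesion protein of epithelia and pluripotent cells, was at 197 and 211 CPM with Olig2 and at 328 and 343 CPM without it. The controls lay between 249 and 307 CPM, the Olig2 line at 276 and 288 CPM and the Nkx6.1-P2A-Nkx2.2 line at 284 and 243 CPM. The Nkx6.1-P2A-Olig2 libraries were below all of these and the Nkx6.1 libraries above all of them. The log2 fold change was -0.88 ± 0.12 (SE; adjusted p = 0.0192). Eif5b, a translation initiation factor that joins the ribosomal subunits and was named after its value was seen, was at 185 and 180 CPM with Olig2 and at 322 and 321 CPM without it. The controls lay between 267 and 326 CPM, the Nkx6.1-P2A-Nkx2.2 line at 286 and 275 CPM and the Olig2 line at 246 and 225 CPM. Its log2 fold change was -0.66 ± 0.10 (adjusted p = 0.0337). Eif5b overlaps Rev1, which is read from the other strand. In an alternative fit with the label number as a block, neither Cdh1 nor Eif5b passed.

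Cell type markers were read beside these genes. The summed level of the pluripotency markers was 197 and 171 CPM in the Nkx6.1-P2A-Olig2 libraries and 316 and 459 CPM in the Nkx6.1 libraries, with controls between 266 and 513 CPM. All 12 tested of 13 had a negative log2 fold change, with a median of -0.96, and 0 passed. Oct4, the product of Pou5f1, holds cells pluripotent, and its gene was at 33.7 and 20.4 CPM with Olig2 and at 68.7 and 80.6 CPM without it (-1.51 ± 0.81, adjusted p = 0.523). In 11 of the 12 both Nkx6.1-P2A-Olig2 libraries lay below both Nkx6.1 libraries, and 26.6% of all genes did so. The part of these cells in the results above was not tested.

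Of the 13 endoderm markers, all tested, 13 had a negative log2 fold change with a median of -0.87, and 0 passed. Their summed level was 7022 and 14605 CPM with Olig2 and 13561 and 13976 CPM without, so the lines overlapped, and without the series term the median was -0.21. Control replicate 5 stood at 22868 CPM against 10814 to 14308 CPM in the other controls, and without that library the median was -0.40. Without Nkx6.1-P2A-Olig2 replicate 1, the lowest library, it was -0.39. Lama1, the laminin chain of early basement membranes, was at 726 and 863 CPM with Olig2 and at 1577 and 1378 CPM without it, a log2 fold change of -0.95 ± 0.17 (adjusted p = 0.0917). Lamb1 was at 521 and 726 CPM against 1200 and 1128 CPM (-1.10 ± 0.24, adjusted p = 0.215). The Nkx6.1-P2A-Nkx2.2 line, without an Olig2 transgene, was at 807 and 923 CPM for Lama1 and at 790 and 978 CPM for Lamb1. Controls lay between 1312 and 1658 CPM for Lama1 and between 892.5 and 1400 CPM for Lamb1. The Olig2 line was at 1927 and 1851 CPM for Lama1 and at 1217 and 1234 CPM for Lamb1. These laminin genes passed without the series term, at adjusted p-values of 0.0144 and 0.0477. No marker of these lists, nor of the mesoderm, neural crest and fibroblast lists, was at 0 in all 4 compared libraries.

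Of the 12 neural progenitor genes, 12 had a positive log2 fold change with a median of 0.77, and 0 passed. Over all genes tested, 49.8% had a positive value. In all 12 both Nkx6.1-P2A-Olig2 libraries lay above both Nkx6.1 libraries, and 24.8% of all genes did so. Their summed level was 974 and 1181 CPM with Olig2 and 698 and 584 CPM without it, and the controls lay between 742 and 1114 CPM. The Nkx6.1-P2A-Nkx2.2 line was at 746 and 995 CPM and the Olig2 line at 671 and 1192 CPM. Sox1, an early neural determinant, was at 73.5 and 116 CPM against 38.7 and 22.4 CPM (1.67 ± 0.61, adjusted p = 0.426). Fabp7, a fatty acid binding protein of radial glia, was at 4.84 and 7.16 CPM against 1.24 and 0.879 CPM (2.46 ± 0.85, adjusted p = 0.409). The median of this list was positive in 23 of 23 alternative fits, from 0.31 to 1.03.

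**Figure D2:**
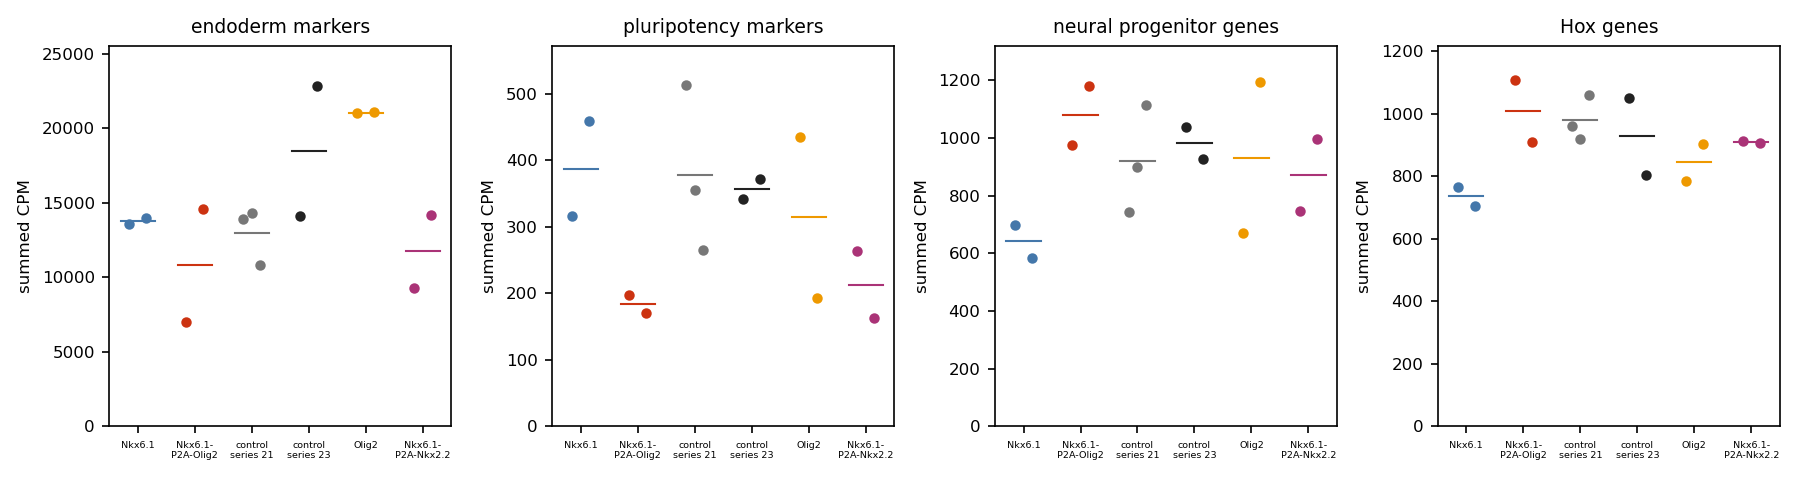
Summed CPM of all listed members of 4 gene lists, tested or not, with 1 point per library, a line at the group mean and the controls split by label series. Pluripotency markers lie at 197 and 171 CPM in the Nkx6.1-P2A-Olig2 line, below both Nkx6.1 libraries, while the endoderm sums of 7022 and 14605 CPM overlap those of the Nkx6.1 line. Pluripotency sums as low occur in replicate 2 of the Nkx6.1-P2A-Nkx2.2 line, at 163 CPM, and of the Olig2 line, at 193 CPM.

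Neurogenic genes stood higher with Olig2 than without it in most libraries, but none passed with the series term. Neurog2, the proneural factor that Olig2 promotes in motor neuron progenitors, was at 15.5 and 20.4 CPM with Olig2 and at 2.26 and 2.23 CPM without it. The controls lay between 5.27 and 23.8 CPM and the Olig2 line at 45.2 and 71.2 CPM. The libraries with both factors were thus above Nkx6.1 alone, within the control range, and below Olig2 alone. The log2 fold change of Neurog2 was 2.13 ± 0.63 (SE; adjusted p = 0.384) with the series term and 2.99 without it (adjusted p = 0.0425).

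Neurog1, a related proneural factor, was at 7.01 and 14.5 CPM with Olig2 and at 1.13 and 0.946 CPM without it (2.62 ± 0.98, adjusted p = 0.439). Neurog3, which acts in the endocrine pancreas and in parts of the nervous system, went the other way, at 0.665 and 0.402 CPM against 3.83 and 7.30 CPM. Its log2 fold change was -3.29 ± 0.78 (adjusted p = 0.270), and without the series term it passed (-3.35, adjusted p = 0.0397). Of the 10 tested proneural factors, of 12 listed, 8 had a positive log2 fold change and 0 passed, with a median of 0.37. Without the series term the median was 1.85, and Neurog2 and Neurog3 passed. In 8 of the 10 both Nkx6.1-P2A-Olig2 libraries lay above both Nkx6.1 libraries, beside 24.8% of all genes.

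The Notch pathway, through which differentiating cells hold their neighbours in the progenitor state, had 19 of 21 tested members with a positive log2 fold change, a median of 0.32 and 0 past the threshold. In 14 of the 21 the Nkx6.1-P2A-Olig2 libraries were both above the Nkx6.1 libraries, beside 24.8% of all genes. Among the ligands, Dll1 was at 48.7 and 76.9 CPM against 38.9 and 34.2 CPM and Dll4 at 3.32 and 6.23 CPM against 1.01 and 0.676 CPM. Their adjusted p-values were 0.726 and 0.539. Among the Fringe enzymes, which modify Notch receptors, Lfng was at 13.4 and 25.1 CPM against 2.71 and 3.99 CPM, and Mfng at 13.8 and 24.6 CPM against 5.30 and 5.41 CPM. Their log2 fold changes of 1.33 ± 0.75 and 1.28 ± 0.63 did not pass, while Rfng overlapped between the lines.

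Among the targets of Notch, Hes5 was at 14.7 and 33.1 CPM with Olig2 and at 3.50 and 2.84 CPM without it (1.80 ± 0.89, adjusted p = 0.499). Nrarp, a feedback inhibitor, was at 24.8 and 59.7 CPM against 9.87 and 10.5 CPM (1.25 ± 0.77, adjusted p = 0.572). The Nkx6.1-P2A-Olig2 libraries differed from each other for both genes, and replicate 2 was the higher, as it was for the ligands and Fringes above. The receptors Notch2 and Notch3 overlapped between the lines.

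The motor neuron list had 10 tested of 14 members, with 6 negative and 4 positive log2 fold changes, a median of -0.29 and 0 past the threshold. Without the series term the median was 0.49, so that the sign depends on the control difference, and it was also positive without control replicate 5 (0.17) or without Nkx6.1-P2A-Olig2 replicate 1 (0.12). Lhx3, a LIM homeodomain factor of motor neurons and V2 interneurons, was at 0.907 and 1.67 CPM with Olig2 and at 0.169 and 0.0676 CPM without it (1.79 ± 1.06, adjusted p = 0.557). Mnx1, a homeodomain factor that keeps motor neuron identity, was at 9.61 and 12.99 CPM against 7.61 and 5.34 CPM (0.42 ± 0.49, adjusted p = 0.776). Isl1, a LIM factor needed for motor neurons, was at 1.45 and 2.41 CPM against 1.47 and 1.22 CPM and overlapped. Olig1, the neighbour of Olig2, was at 4.84 and 6.83 CPM against 6.09 and 5.41 CPM and overlapped too.

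The progenitor factors of the intermediate neural tube did not separate the lines. Of 12 tested, of 14 listed, 5 had a negative and 7 a positive log2 fold change, with a median of 0.09 and 0 past the threshold. In 9 of the 12 the libraries of the lines overlapped, while 2 lay below and 1 above with Olig2. Over all genes tested, 26.6% lay below and 24.8% above, and the rest overlapped. Pax6, a homeodomain factor that Nkx2-2 opposes at a progenitor boundary, was at 41.2 and 32.8 CPM with Olig2 and at 43.0 and 32.6 CPM without it, against 77.8 to 127 CPM in the controls. Irx3, the factor that Olig2 restrains, was at 12.5 and 10.9 CPM with Olig2, at 22.0 and 14.3 CPM without it, at 44.4 to 75.3 CPM in the controls and at 24.3 and 28.1 CPM in the Olig2 line. On adding Olig2, the log2 fold change of Irx3 was -0.53 ± 0.33 (SE; adjusted p = 0.582). Dbx1 and Dbx2, homeodomain factors of more dorsal progenitors, overlapped between the lines, at 0.603 to 1.57 CPM and at 0.608 to 0.907 CPM. Nkx6-2, a paralogue of Nkx6-1, was at 2.78 and 5.16 CPM against 6.09 and 5.61 CPM (-1.60 ± 0.51, adjusted p = 0.385).

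The Hox genes, which set position along the body axis and respond to retinoic acid, had 22 of 23 positive log2 fold changes with a median of 0.68, and 0 passed. In 19 of the 23 both Nkx6.1-P2A-Olig2 libraries lay above both Nkx6.1 libraries, beside 24.8% of all genes. An unadjusted p under 0.05 was reached by 9 of the 23, all higher, against 5.09% of all genes. Hoxa4 was at 24.8 and 24.4 CPM with Olig2 and at 14.3 and 14.0 CPM without it, and the controls lay between 18.73 and 21.001 CPM. Its log2 fold change was 0.67 ± 0.15 (adjusted p = 0.256), and 0.80 without the series term (adjusted p = 0.0145). Hoxc5 was at 83.9 and 64.5 CPM against 43.4 and 35.6 CPM (1.04 ± 0.26, adjusted p = 0.346). Hoxb1, the member with a negative value, was at 64.1 and 38.8 CPM against 73.7 and 79.0 CPM. The summed level was 1109 and 910 CPM with Olig2 and 765 and 707 CPM without it, within a control range of 806 to 1062 CPM for 1 of the Nkx6.1-P2A-Olig2 libraries and above it for the other.

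**Figure D3:**
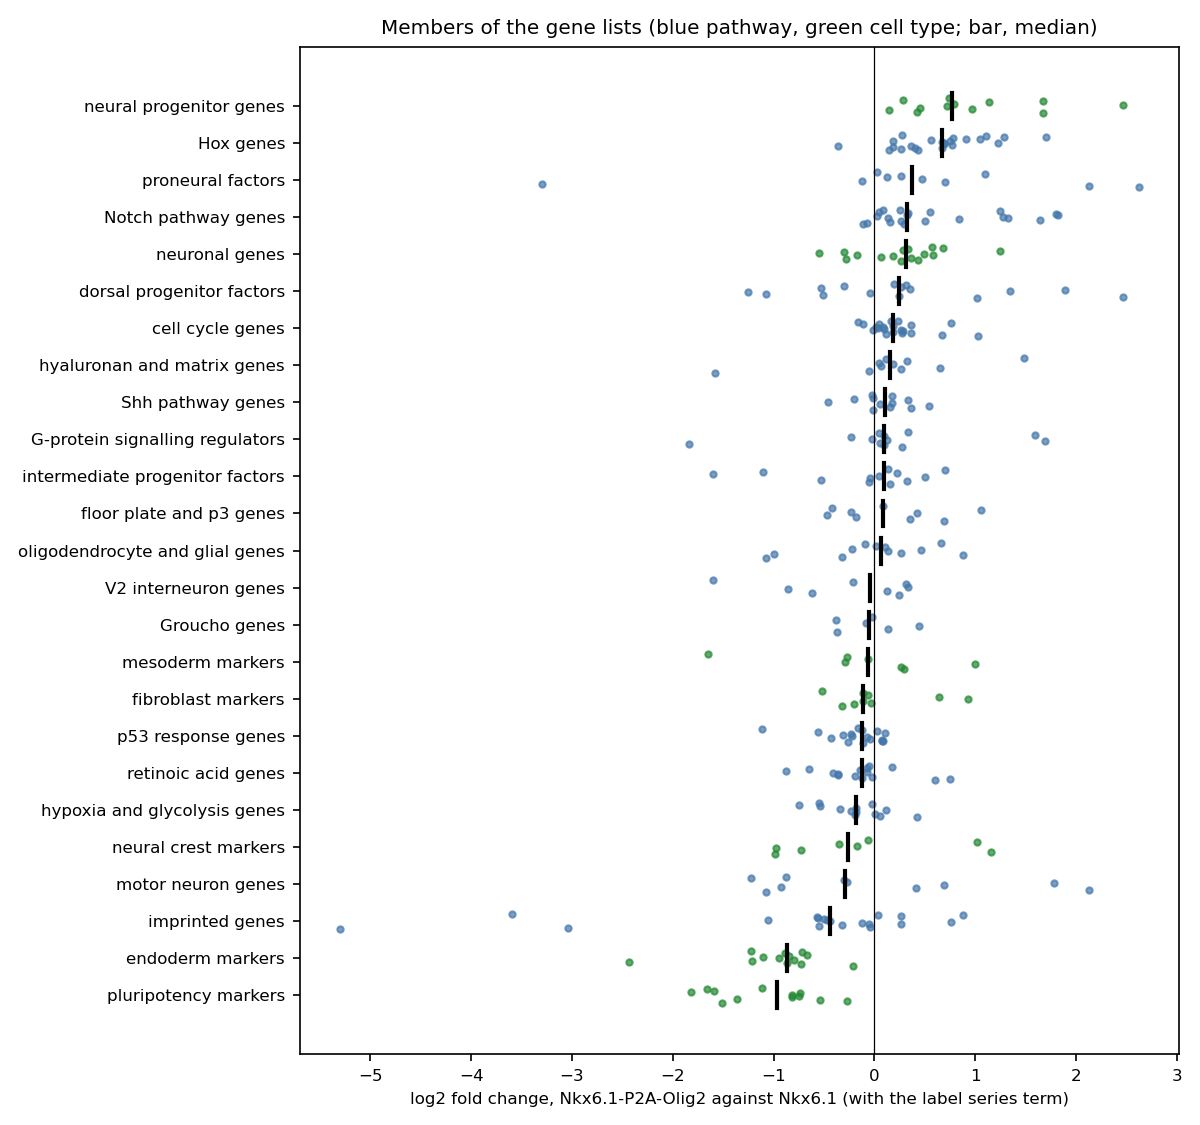
Log2 fold change of each tested member of 25 gene lists between the Nkx6.1-P2A-Olig2 and Nkx6.1 lines, from the model with the label series term, 1 point per gene with a bar at the median of the list. The medians run from -0.96 for pluripotency markers to 0.77 for neural progenitor genes, and the only members past the threshold are Plagl1 and Nnat, at the left of the imprinted genes.

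Without the label series term, which compares the lines directly and leaves any difference between the series in, 46 genes were lower and 36 higher, or 0.329% and 0.257% of those tested. Of the 82 genes, 6 were also past the threshold with the term: Plagl1, Xlr3c, Xlr3a, Nxf3, Cdh1 and Eif5b. All 82 had the same sign with the term and an unadjusted p under 0.05 there. The control libraries themselves had 0 genes past the threshold between the series, and for all genes the median log2 fold change was -0.0017 with the term and -0.011 without.

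Several list members, named here after their values were seen, passed only without the term. Has2, a hyaluronan synthase, was at 1.69 and 1.47 CPM with Olig2 and at 6.48 and 6.69 CPM without it, and the controls lay between 18.7 and 36.0 CPM (-2.05, adjusted p = 0.0418). Rgs16, a regulator of G-protein signalling, was at 12.3 and 13.1 CPM against 2.99 and 3.31 CPM, with 2.81 to 4.56 CPM in the controls and 15.4 and 34.8 CPM in the Olig2 line (2.01, adjusted p = 0.033). Pax7, a factor of dorsal progenitors, was at 5.92 and 4.35 CPM against 1.24 and 1.28 CPM, and the controls lay between 1.06 and 2.86 CPM (2.02, adjusted p = 0.0425). With the term their adjusted p-values were 0.346, 0.362 and 0.215. Rgs16 was high in every library with an Olig2 transgene of these lines, and Pax7 was higher in both Nkx6.1-P2A-Olig2 libraries than in every control. Has2 was also low without an Olig2 transgene, at 2.65 and 1.89 CPM for Nkx6.1-P2A-Nkx2.2. These Has2 values lay below both Nkx6.1 libraries, and the Olig2 line was at 8.71 and 4.87 CPM. For Nkx6.1-P2A-Nkx2.2, Rgs16 was at 3.21 and 3.97 CPM and Pax7 at 1.36 and 1.13 CPM, near the Nkx6.1 libraries.

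Other genes past the threshold only without the term included Nr2f1, an orphan nuclear receptor, at 92.4 and 88.6 CPM with Olig2 and at 38.5 and 31.2 CPM without it (1.38, adjusted p = 0.033). Sfrp2, a secreted Wnt antagonist, was at 110 and 92.6 CPM against 50.8 and 41.2 CPM (1.14, adjusted p = 0.0397). Cyp1b1, a cytochrome that can make retinoic acid, was at 26.1 and 19.6 CPM against 87.4 and 78.5 CPM (-1.86, adjusted p = 0.0144), with 40.6 to 63.8 CPM in the controls. The controls of Nr2f1 lay between the lines, at 62.7 to 81.6 CPM, as did those of Cyp1b1. Cyp1b1 was also low without an Olig2 transgene, at 27.9 and 22.7 CPM for Nkx6.1-P2A-Nkx2.2 and at 25.8 and 17.1 CPM for Nkx2.2. The Olig2 line was at 20.6 and 16.5 CPM, and all of these libraries lay below every control. For Nkx6.1-P2A-Nkx2.2, Nr2f1 was at 33.4 and 45.4 CPM and Sfrp2 at 21.7 and 26.5 CPM, below both Nkx6.1-P2A-Olig2 libraries.

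**Figure D4:**
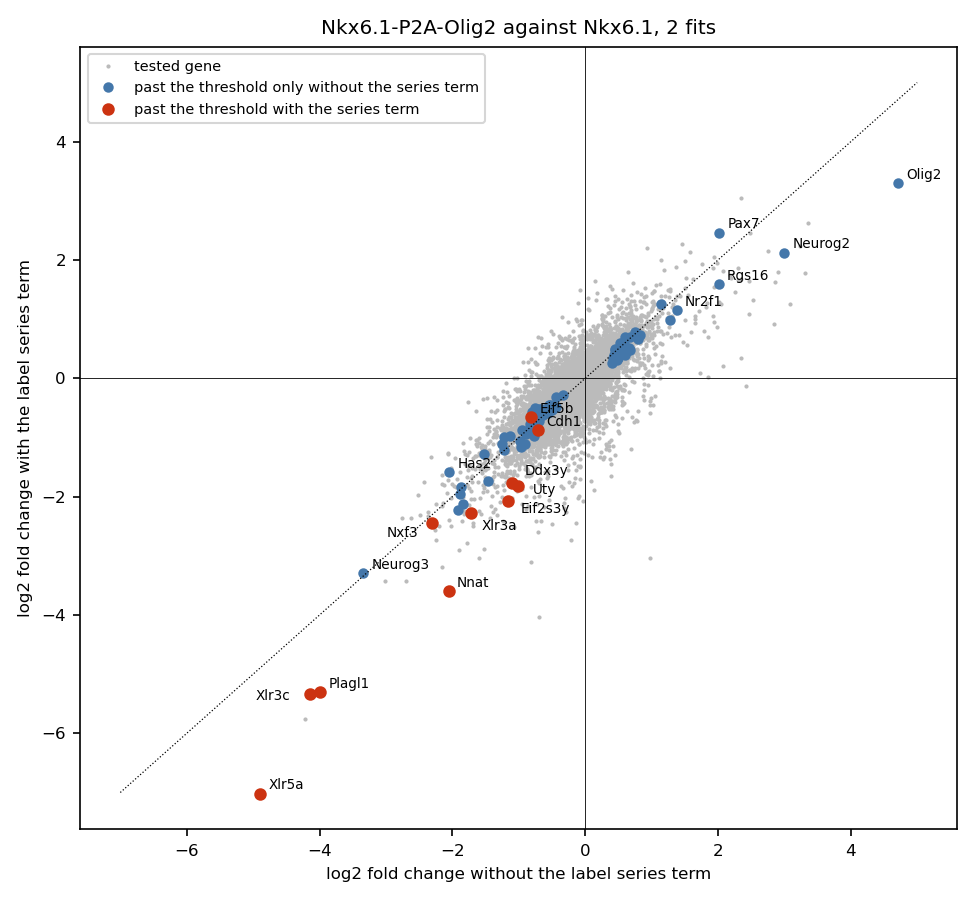
Log2 fold change of each of the 13982 tested genes between the Nkx6.1-P2A-Olig2 and Nkx6.1 lines, without the label series term on the horizontal axis and with it on the vertical axis; the dotted line marks equal values. Olig2 lies below that line, at 4.71 without the term and 3.31 with it, and Nnat lies below it as well, at -2.06 and -3.60.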

How the data were processed

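RNA of mouse neural progenitors was purified on columns and made into 15 libraries with a TruSeq kit, per the labels' protocols. STAR, DESeq2 and mm10 are named in the submitters' processing notes, with no versions or roles. The annotation, counter and read filters are not given in the sources used here. The first deposited table holds raw counts per gene, 23420 rows with 0 non-integer cells, although its sheet is named for RPKM. A spreadsheet had turned 27 symbols into dates. These rows held 0.228% to 0.253% of each library, were left out of the tests and kept in the totals. A further deposited table gives, for 224 genes, the ratio of a library's count to the control mean, as the authors made it, and was used for description only.

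The test covered 13982 genes, those that reached 1 CPM in 2 or more libraries, and used edgeR 4.0.16 (R 4.3.3): TMM scaling, a quasi-likelihood fit of 6 groups and a label series term to all 15 libraries, and Benjamini-Hochberg adjustment over all tested genes at 0.05. "Rose" and "fell" refer to genes past it. Alternatives were DESeq2 1.42.0, limma 3.58.1 on log2(CPM + 1), other scaling, filters, libraries and blocks. Named genes were the 3 factors, up to 10 passing genes on each side by size, and list members past the threshold. All tested motor neuron, intermediate, proneural and Notch members could be given by value. Other genes are said to be named after their values were seen. Endoderm, pluripotency, neural progenitor, Hox and imprinted genes named without passing were also chosen after their values were seen. The comparison, its genes and the 25 lists were chosen with earlier results of these data known. The model was tested on simulated data. Positions are from GENCODE M21 (mm10), and promoters from RefSeq GRCm38.p6.

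Totals ran from 12282038 to 19426544 counts. With 2 libraries in each line, the precision comes from a spread shared by all groups. Intervals cover counting error only. Whether equal replicate numbers pair the lines was checked by the correlation of deviations from the group means, 0.0794. By shared label number, the Nkx6.1-P2A-Olig2 libraries correlated at 0.610 with control replicates 4 and 5 and at 0.582 with the Nkx6.1-P2A-Nkx2.2 line, but not every pair of the study passed 0.1. Neither number was therefore taken to pair the samples.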

Additional observations from a re-analysis of the deposited data

Results flagged for a closer look

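Among the controls, 4 of 39 values tested had a library far from the other 4, by the ratio of its gap to the range of the group. Chance flags about 1 in 20 groups. Replicate 5 was the far library for the summed level of endoderm markers (ratio 0.710), at 22868 CPM, and of dorsal progenitor factors (0.718), at 128 CPM. Replicate 1 was the far library for floor plate and p3 genes (0.732), at 181 CPM, and for hypoxia and glycolysis genes (0.720), at 3766 CPM. Replicate 5 is 1 of the 2 libraries behind the series 23 control level, and its part in the comparison was measured by leaving it out: the median log2 fold change of the endoderm markers was -0.87 with it and -0.40 without.

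The change on adding Olig2 to Nkx6.1 differed from the change on adding Olig2 alone for 3 Y-linked genes, in the test of the difference itself. The log2 differences were 10.4 for Ddx3y, 6.80 for Eif2s3y and 5.57 for Uty, and for each gene both Nkx6.1-P2A-Olig2 libraries stood above both Olig2 libraries. These sizes depend on the prior count, since the Olig2 line had 0, 1 and 3 counts. That line also had 0 counts of Uba1y and Usp9y, so the 3 calls rest on a line almost without Y counts. A property of that line and an effect of Olig2 cannot be told apart here.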

How the results depend on the processing

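In place of the 11 genes that changed, the alternatives gave 63 with DESeq2, 22 with no filter, 82 with no label series term, 6 with only the lines compared and the controls in the fit, 7 with the replicate number as a block and 19 with the label number as a block. Leaving out 1 library gave 5 to 23: 5 without Nkx6.1 replicate 2 or Nkx6.1-P2A-Olig2 replicate 1, 6 without control replicate 3, 7 without Nkx6.1 replicate 1, Nkx6.1-P2A-Olig2 replicate 2 or control replicate 5, and 23 without control replicate 4. The 9 genes changed by 2-fold or more became 39 with DESeq2, 18 with no filter, 23 with no label series term and 14 with only the 4 compared libraries, and 5 to 20 on leaving out 1 library. The 3 genes that differed from Olig2 alone became 68 with DESeq2, 188 with no label series term, 481 with the label number as a block, and 2 to 10 on leaving out 1 library (10 without control replicate 4, 5 without control replicate 1). The cause was not tested.

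With the replicate number as a block, 6 of the 7 genes called were among the 11, and with the label number as a block 8 of 19. Deviations of libraries with the same label number correlated from -0.52 to 0.73 over 10 pairs, above 0.1 in 6, so neither number was taken to pair the samples. The 4 pairs with a Nkx6.1-P2A-Olig2 library were at 0.24 to 0.65, all above 0.1. For that line the main fit may therefore leave out a pairing by label number. With the label number as a block, Xlr5a, Cdh1 and Eif5b did not pass (adjusted p = 0.0547, 0.0547 and 0.0705).

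Nkx6-1 reversed to 0.053 with no label series term and to 0.067 with only the 4 compared libraries. Nkx2-2, with 8 and 2 counts, was at -0.11 in limma and ranged from -0.89 to 4.27 on leaving out 1 library. Over the 23 alternatives Plagl1 was past the threshold in 23, Xlr3c in 22, Nxf3, Eif2s3y and Ddx3y in 21 each, Nnat in 19, Xlr3a in 16, Uty in 14, Cdh1 in 13 and Eif5b in 12, and Xlr5a in 12 of the 19 in which it had a value. All of these stayed negative. Leaving out the Olig2 line or 1 of its libraries was chosen after seeing the data.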

Other observations

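Among the other lists, the 21 cell cycle genes had 18 positive log2 fold changes with a median of 0.18, the 15 retinoic acid genes 12 negative with a median of -0.12, and the 12 Shh pathway genes 5 negative and 7 positive with a median of 0.11. None of their members passed. The 9 tested fibroblast markers had 7 negative values with a median of -0.11, and their summed level was 383 and 405 CPM with Olig2 and 575 and 537 CPM without it. Their part in the results was not tested.

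Sost, a secreted Wnt and BMP antagonist named after its value was seen, was at 5.20 and 6.23 CPM with Olig2 and at 1.80 and 2.37 CPM without it (2.27 on the log2 scale, edgeR quasi-likelihood adjusted p = 0.0647). Both Nkx6.1-P2A-Olig2 libraries were above both Nkx6.1 libraries, as in 24.8% of all genes. The Nkx6.1-P2A-Nkx2.2 line, without an Olig2 transgene, was higher still for Sost, at 8.42 and 8.38 CPM. The Olig2 line was at 0.976 and 1.74 CPM, and the controls lay between 0.778 and 1.72 CPM.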
